A study of Mus musculus with 10 samples.

Results

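The genes described here encode the proteins of the small (40S) subunit of the cytosolic ribosome. They were chosen by name, as the rows of the deposited count table whose symbol is among 29 listed symbols, from Rps2 to Rps29 together with Rpsa and Fau. All 29 were found among the 24544 genes of the table, and no measured value enters the rule. Each was compared between 5 libraries of NEO1+ and 5 libraries of NEO1- long-term hematopoietic stem cells of the mouse, and the members and paralogs that depart from the rest are named.

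Both groups were taken from bone marrow of Hoxb5-mCherry mice, which were 2 to 3 months old and carry a red fluorescent reporter of the transcription factor gene Hoxb5. Every library was sorted with the same markers (Hoxb5+, CD150+, cKIT+ and SCA1+, and negative for lineage markers, CD34, CD48 and FLK2), and the groups differed in whether neogenin-1, a receptor at the cell surface, was stained (NEO1+) or not (NEO1-). A library held the RNA of 250 to 500 cells of 2 pooled mice, so the spread between libraries is a spread between pools. The cDNA was made by Smart-seq2, which primes on poly(A) tails and amplifies whole transcripts, here over 18 cycles of PCR. The reporter gate, and not a transplantation, defines the stem cells here, and the labels do not say whether both fractions of a number came from the same mice.

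The small subunit binds the messenger RNA, carries the decoding site and pairs codons with transfer RNA, while the large (60S) subunit joins amino acids. Each small-subunit protein is present once per subunit, and loss of a single copy of several of the genes causes Diamond-Blackfan anemia in humans, a failure of red cell production. Transcripts of ribosomal protein genes typically begin with a C followed by a run of pyrimidines, the terminal oligopyrimidine (TOP) tract, through which mTOR signaling and LARP1 adjust their translation together. Hematopoietic stem cells are known for a low rate of protein synthesis.

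The start of the transcript is the sequence feature these genes are best known to share. It was read in windows of 30 bases, 10 before and 20 from the start annotated by RefSeq (GRCm38.p6), of which 25 of the 29 genes had 1 or more. The tract searched was a C within 5 bases of the start followed by at least 4 bases that are each C or T, on the strand of the gene. It was present at 13 of the 25 genes (52%), at 17 of 41 large-subunit genes (41.5%) and at 5718 of the 27025 genes of the promoter table (21.2%). The windows below show 5 genes with long or typical tracts, the paralogs Rps27 and Rps27l, and 2 genes without one, with the tract in capitals. A window without it says only that these letters do not stand at the annotated start.
Fau, chr19:6057937-6057966, plus strand: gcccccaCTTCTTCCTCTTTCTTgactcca
Rps10, chr17:27635225-27635254, minus strand: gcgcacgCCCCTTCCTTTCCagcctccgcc
Rps18, chr17:33955646-33955675, minus strand: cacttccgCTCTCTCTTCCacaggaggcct
Rps6, chr4:86857348-86857377, minus strand: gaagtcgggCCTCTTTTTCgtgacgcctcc
Rps9, chr7:3704031-3704060, plus strand: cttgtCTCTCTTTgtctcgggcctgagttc
Rps27, chr3:90213629-90213658, minus strand: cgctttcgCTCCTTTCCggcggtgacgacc
Rps27l, chr9:66946076-66946105, plus strand: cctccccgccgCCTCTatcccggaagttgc
Rpsa, chr9:120127756-120127785, plus strand: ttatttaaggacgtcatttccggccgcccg
Rps25, chr9:44407704-44407733, plus strand: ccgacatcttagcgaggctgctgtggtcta

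Levels are given in CPM, the count over the library size in M (mega) counts, with library sizes scaled by the TMM method, which evens out the bulk of genes. The libraries held 21.2 to 38.9 M counts in NEO1+ and 24.5 to 35.3 M in NEO1- cells, and no member was at 0 counts in any of them. NEO1+ libraries detected more genes (13146 ± 391 against 12142 ± 680) and gave a smaller share to the ribosomal RNA precursor Rn45s (32.3 ± 3.89% against 38.4 ± 5.01%; SD, n = 5 each). Neo1 itself was at 48.6 to 64.8 CPM in NEO1+ libraries 1, 2, 3 and 5 and at 12.5 CPM in library 4, inside the 4.56 to 18.9 CPM of the NEO1- libraries. The library labelled NEO1+ 4 therefore did not stand apart from the NEO1- group in this transcript, and counts are also given without it. The NEO1- library of the same number was the lowest of its group, at 4.56 CPM. The sort was on staining of the protein and not on the transcript. Of 10 stem cell markers all were detected, with summed levels of 2024 to 2288 CPM (NEO1+) against 1954 to 2429 CPM (NEO1-), although Hoxb5 itself was at 0 counts in 1 NEO1- library. Markers of erythroid cells (23.9 to 377 against 9.74 to 206 CPM, 3 of 10 at 0 in all libraries), granulocytes and monocytes (492 to 3105 against 380.0 to 3133 CPM), and lymphoid cells (34.1 to 50.6 against 25.0 to 60.9 CPM, 5 of 10 at 0) overlapped between the groups. Megakaryocyte markers (1 of 8 at 0) had a higher sum in NEO1+ cells, at 205 ± 14.3 against 152 ± 31.1 CPM (SD, n = 5 each), with ranges that met at 189.7 to 226 and 115 to 196 CPM. The single genes went both ways: of the 7 tested, 3 were higher and 4 lower, with a median log2 fold change (NEO1+ over NEO1-) of -0.22. The 4 lower were Ppbp (-1.37), Gp1ba (-0.75), Pf4 (-0.35) and Gp9 (-0.22), none at an unadjusted p under 0.05 in edgeR. In that list 2 genes were higher at an unadjusted p under 0.05 in edgeR, Vwf at 0.78 (SE 0.20) and Itga2b at 0.58 (SE 0.27), and Vwf passed adjustment in DESeq2 (0.0420) but not in edgeR (0.368), with 0.00365 to 0.9998 over all alternatives.

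Cell cycle markers moved with the group. Their summed level ran from 289 to 467 CPM across NEO1+ libraries, above the 83.4 to 205 CPM of the NEO1- libraries, and all 12 were higher in NEO1+, 6 of them at an unadjusted p under 0.05 in edgeR. None passed adjustment in edgeR, 1 did in DESeq2 (Cdk1, adjusted p 5.47e-05, with 3.3e-05 to 0.9998 over all alternatives), and 6 did in DESeq2 with the library number as a block. Mki67, a marker of cycling cells, was 46.5 ± 15.5 against 11.3 ± 7.83 CPM (SD, n = 5 each). The part of the cycling and megakaryocyte markers, of the number of genes detected and of the Rn45s share in the differences described below was not tested beyond the refits given with them.

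The members differed widely in level within a library. Per kb of coding length, Rps9, which contacts the ribosomal RNA near the entry of the messenger RNA, was highest with 2175 CPM per kb in NEO1+ and 3016 CPM per kb in NEO1- libraries. It was followed by Rps14, a platform protein, with 1947 and 2663 CPM per kb, and Rps18, a head protein at the interface with the large subunit, with 1826 and 2250.1 CPM per kb. At the low end, Rps28 and Rps21 measured 157 and 211 and 104 and 154 CPM per kb, and Rps27 only 3.32 and 3.56 CPM per kb. Rps27 left out, the highest and lowest members stood 20.1-fold apart in CPM per kb, although the proteins are needed in equal number. Short genes were low also before division by length: over the 28 members without Rps27, log2 CPM correlated with log2 coding length at r = 0.83, a description over genes of the same libraries.

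**Figure D1:**
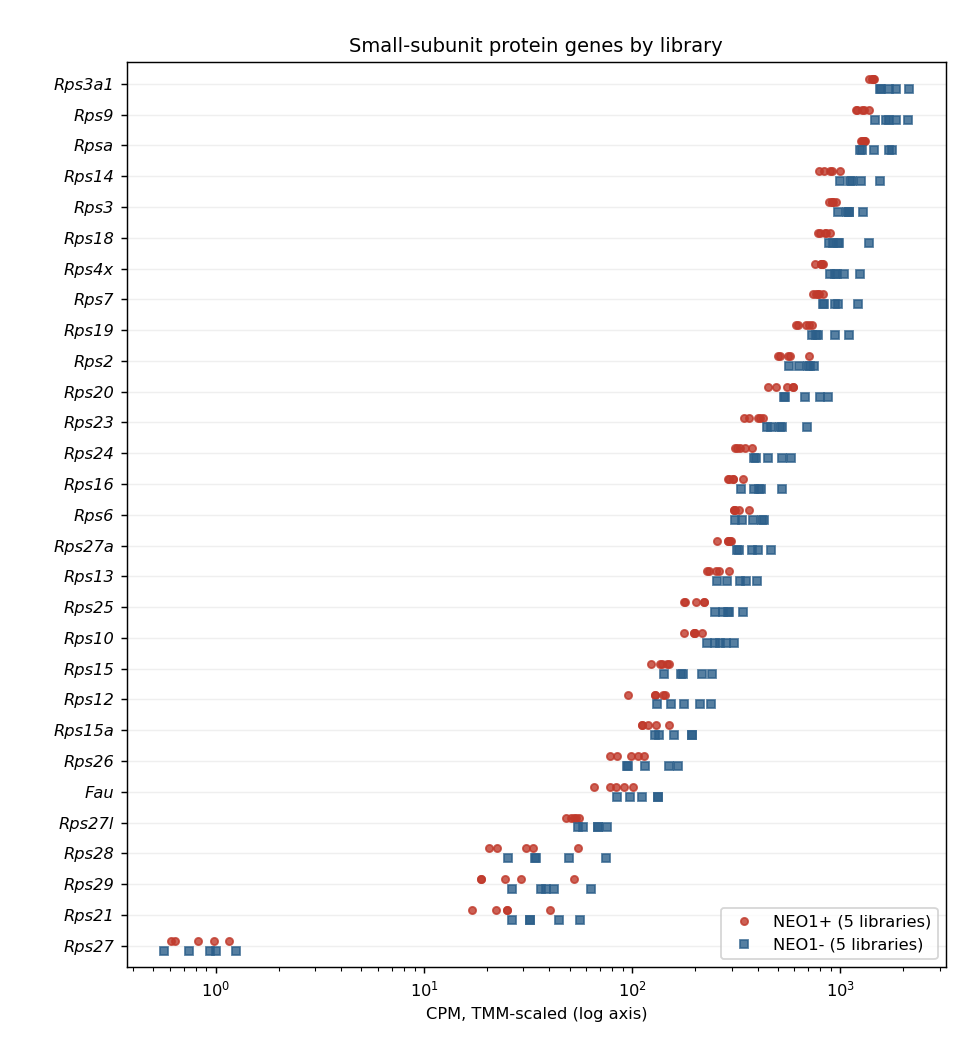
Level of each of the 29 genes in each library, in TMM-scaled CPM on a log axis; circles are the 5 NEO1+ and squares the 5 NEO1- libraries, ordered by mean. The NEO1- squares lie mostly to the right of the NEO1+ circles, from Rps21, whose highest library is at 56.2 CPM, up to Rps3a1 at 1374 to 2124 CPM, while Rps27 lies apart at 0.562 to 1.24 CPM.

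All 29 genes were lower in NEO1+ cells. Their log2 fold changes (NEO1+ over NEO1-) had a median of -0.38 and ran from -0.57 for Rps21 to -0.10 for Rps27, where all 12203 genes tested had a median of 0.01 and 49% lay below 0. At an unadjusted p under 0.05, 22 of the 29 genes (75.9%) stood lower and none higher, against 3.49% of all genes tested lower and 3.11% higher. Among the 3515 genes of at least 50 CPM, 7.23% were lower by the same rule. No member passed the edgeR test after adjustment over all genes, and neither did any other gene (0%); the smallest adjusted p among the members was 0.155. For 11 members the highest NEO1+ library was below the lowest NEO1- library, against 1.13% of all genes tested and 1.93% of those of at least 50 CPM. Without the library labelled NEO1+ 4, 19 members were lower at an unadjusted p under 0.05 and 11 did not overlap. Groups separate more easily with fewer libraries, and the shares of all genes are not given for that setting. Between libraries of the same number, 22 members were lower in NEO1+ in 5 of 5 comparisons, 6 in 4 and Rpsa in 3. The share of all genes with that pattern was not counted, and the labels do not say that the numbers are pairs.

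How many members pass adjustment depended on the tool. DESeq2 called 11 members lower (0.408% of the genes it tested), or 18 with the library number as a block (1.2%), and the 18 include the 11. Although the rule uses names alone, the family was picked with earlier results of these data in view, so these counts are read beside those shares and not as a test of the group. Most members also varied less between libraries of a group than most genes: their biological coefficient of variation had a median of 0.171, against 0.425 for all genes tested and 0.233 for those of at least 50 CPM. These medians are not matched for level, so the part of level was not tested. The low-level members Rps21, Rps29, Rps28 and Rps27 had 0.348, 0.380, 0.390 and 0.911. In bulk libraries a lower level per cell cannot be told apart from fewer cells that express the gene.

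The 12 proteins of the head, the part of the subunit that swivels as the messenger RNA moves, included 10 genes lower at an unadjusted p under 0.05; the log2 fold changes ran from -0.53 to -0.27 around a median of -0.43. Rps25, a head protein known for its role in initiation on internal ribosome entry sites, measured 179.6, 220.2, 177, 203 and 221 CPM in NEO1+ libraries 1 to 5 and 249, 339.8, 273, 292 and 287 CPM in NEO1- libraries 1 to 5. Every NEO1- library lay above every NEO1+ library, at 200.2 ± 21.4 against 288 ± 33.4 CPM (SD, n = 5 each). The log2 fold change was -0.53 (SE 0.11), with an edgeR adjusted p of 0.248 and a DESeq2 adjusted p of 0.000523; over all alternatives it ran from 6.14e-06 to 0.9998. Rps10, one of the Diamond-Blackfan genes, measured 197, 217, 199, 178 and 199.8 CPM in NEO1+ libraries 1 to 5 and 282, 308, 264, 248 and 229 CPM in NEO1- libraries 1 to 5. It did not overlap either, with a log2 fold change of -0.43 (SE 0.10) and an edgeR adjusted p of 0.290.

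Rps12, which sits at the beak of the head, measured 140.3, 143, 129, 95.2 and 128 CPM in NEO1+ libraries 1 to 5 and 212, 240.1, 132, 178 and 154 CPM in NEO1- libraries 1 to 5. Its log2 fold change of -0.52 (SE 0.17) was nearly that of Rps25, but NEO1- library 3 lay inside the NEO1+ range and the adjusted p was 0.547. Rps19, the gene most often mutated in Diamond-Blackfan anemia, measured 684, 729, 628, 608 and 709 CPM in NEO1+ libraries 1 to 5 and 938, 1093, 759, 777 and 733 CPM in NEO1- libraries 1 to 5. All NEO1- libraries were above all NEO1+ libraries, by as little as 732.5 against 729 CPM, and the log2 fold change was -0.36 (SE 0.11) with an adjusted p of 0.505. Rps18 measured 842, 892, 796, 777 and 857 CPM in NEO1+ libraries 1 to 5 and 979, 1373, 917, 981 and 881 CPM in NEO1- libraries 1 to 5. Its log2 fold change of -0.30 (SE 0.11) became -0.17 without NEO1- library 2, the highest of all 10.

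Rps29 and Rps28 are the shortest members, with coding lengths of 168 and 207 bases, and both are Diamond-Blackfan genes. Rps29 measured 52.5, 24.4, 18.8, 18.7 and 29.2 CPM in NEO1+ libraries 1 to 5 and 63.1, 41.9, 26.3, 36.4 and 38.4 CPM in NEO1- libraries 1 to 5. Rps28 measured 55.1, 30.9, 22.4, 20.6 and 33.4 CPM in NEO1+ libraries 1 to 5 and 74.9, 49.9, 25.2, 34.3 and 34.1 CPM in NEO1- libraries 1 to 5. In both genes the library numbered 1 was the highest of its group, the groups overlapped, and the standard errors were wide, with log2 fold changes of -0.52 (SE 0.33) and -0.43 (SE 0.34). Without NEO1- library 1 they were -0.32 and -0.14, and without NEO1+ library 1 they were -0.85 and -0.70. The unadjusted p of Rps29 was 0.134, or 0.0322 with the library number as a block and 0.0127 without NEO1+ library 1. That of Rps28 was 0.227. The other head members without values by library, Rps3, Rps15, Rps16 and Rps20, had log2 fold changes between -0.45 and -0.27. Rps3, at the entry of the messenger RNA, did not overlap at 916 ± 23.2 against 1106 ± 109.5 CPM. Rps16, whose tail reaches the decoding site, was 306 ± 21 against 413 ± 69.1 CPM and overlapped. Rps20 had no call at an unadjusted p under 0.05 in 4 of the 10 fits that leave out 1 library each.

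The body and platform, which hold the messenger RNA entry and exit, include 17 members, of which 12 were lower at an unadjusted p under 0.05. Their median log2 fold change was -0.35. Rps9 had the smallest p of all members and measured 1190.5, 1364, 1208, 1274 and 1292 CPM in NEO1+ libraries 1 to 5 and 1845, 2115, 1703, 1649.8 and 1462 CPM in NEO1- libraries 1 to 5. No library of one group reached the other, at 1266 ± 69.8 against 1755 ± 244 CPM (SD, n = 5 each), and the log2 fold change was -0.47 (SE 0.088) with an edgeR adjusted p of 0.155 and a DESeq2 adjusted p of 6.48e-05; over all alternatives it ran from 1.66e-07 to 0.9998. Rps14 measured 907, 990.2, 836, 789 and 887 CPM in NEO1+ libraries 1 to 5 and 1252, 1548, 1111, 1131 and 989.9 CPM in NEO1- libraries 1 to 5. NEO1+ library 2 just reached NEO1- library 5, and the log2 fold change was -0.45 (SE 0.11) with an adjusted p of 0.290. Rps24, a Diamond-Blackfan gene of the body, measured 376, 328, 318, 310.3 and 346 CPM in NEO1+ libraries 1 to 5 and 524, 580.4, 385, 448 and 394 CPM in NEO1- libraries 1 to 5. Its groups did not overlap, with a log2 fold change of -0.47 (SE 0.12) and an adjusted p of 0.333.

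Rps21 had the lowest log2 fold change of the 29 and is again short, with a coding length of 249 bases. It measured 40.3, 25.0, 22.1, 17 and 25.1 CPM in NEO1+ libraries 1 to 5 and 56.2, 44.7, 26.5, 32.4 and 32.4 CPM in NEO1- libraries 1 to 5. The library numbered 1 was the highest of each group, the groups overlapped, and the log2 fold change of -0.57 (SE 0.29) had an unadjusted p of 0.0705, or 0.0401 with the block. Rps4x, the X-linked copy of a gene that also has a Y-linked copy in humans, measured 809, 823, 758, 808 and 813 CPM in NEO1+ libraries 1 to 5 and 1042, 1238, 962, 936 and 887 CPM in NEO1- libraries 1 to 5. The NEO1+ libraries were close to each other and all below the NEO1- libraries, at 802 ± 25.3 against 1013 ± 138 CPM (SD, n = 5 each). The log2 fold change was -0.34 (SE 0.086), with an adjusted p of 0.368. Rps6, the substrate of S6 kinase downstream of mTOR, measured 312, 308, 307, 363 and 326 CPM in NEO1+ libraries 1 to 5 and 338, 430.5, 379, 419.9 and 311 CPM in NEO1- libraries 1 to 5. It was among the 3 members closest to 0, with a log2 fold change of -0.22 (SE 0.10) and an unadjusted p of 0.0572.

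The members of the body and platform without values by library were Rps2, Rps3a1, Rps7, Rps13, Rps15a, Rps23 and Rps26, with log2 fold changes between -0.44 and -0.23. Rps3a1 was 1421 ± 28.4 against 1759.7 ± 235 CPM and did not overlap between groups, and neither did Rps7. Rps23, which lies at the decoding center and bears on its accuracy, was 389 ± 34.1 against 527 ± 98.5 CPM without overlap, with a log2 fold change of -0.44 (SE 0.12). Rps2, at the entry of the messenger RNA, was 569.6 ± 81.1 against 670.0 ± 72.4 CPM with a log2 fold change of -0.23 (SE 0.11). Rps7 went from -0.30 to -0.20 without NEO1- library 2. Rps2 lost its call in 7 and Rps15a in 4 of the 10 fits that leave out 1 library each. Rps26, which lines the exit of the messenger RNA, had an unadjusted p of 0.0655, or 0.0417 with the block.

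**Figure D2:**
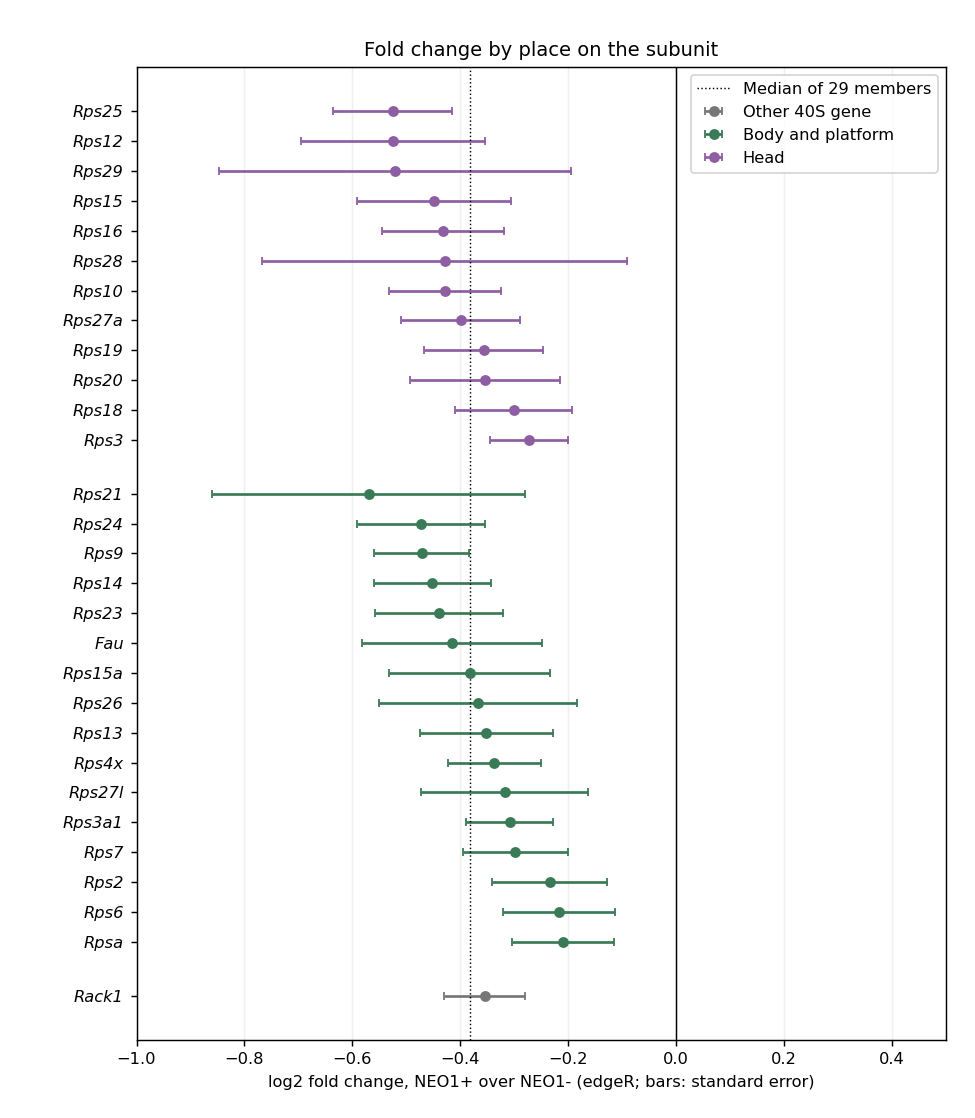
Log2 fold change of each gene, NEO1+ over NEO1- (edgeR; points, with bars of 1 standard error), for head members, body and platform members without Rps27 (-0.10, SE 1.07), and Rack1, another 40S gene that is not a member. All points lie left of 0, and the dotted line marks the members' median of -0.38.

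Both genes whose product is made as a fusion were lower at an unadjusted p under 0.05. Rps27a is translated as ubiquitin joined to the ribosomal protein, and measured 299, 289, 288, 256 and 295 CPM in NEO1+ libraries 1 to 5 and 377, 462, 324, 400.1 and 318 CPM in NEO1- libraries 1 to 5. Its groups did not overlap, with a log2 fold change of -0.40 (SE 0.11), an edgeR adjusted p of 0.390 and a DESeq2 adjusted p of 0.0366; over all alternatives it ran from 0.00727 to 0.9998. Fau is translated as a ubiquitin-like protein joined to the ribosomal protein eS30, and measured 101, 83.7, 77.8, 65.7 and 91.2 CPM in NEO1+ libraries 1 to 5 and 133, 132, 97, 111 and 84.8 CPM in NEO1- libraries 1 to 5. NEO1- libraries 3 and 5 lay inside the NEO1+ range, the log2 fold change was -0.42 (SE 0.17) with an adjusted p of 0.654, and the unadjusted call was lost in 4 of the 10 fits that leave out 1 library each. Over the 9 members that are Diamond-Blackfan genes the log2 fold changes had a median of -0.38; 5 were lower at an unadjusted p under 0.05 and 4 did not overlap.

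Rpsa lay closest to 0 of all members other than Rps27. It encodes the protein at the exit side that also serves, outside the ribosome, as the laminin receptor. It measured 1253, 1315, 1294, 1293 and 1276 CPM in NEO1+ libraries 1 to 5 and 1767, 1710.0, 1264, 1448 and 1247 CPM in NEO1- libraries 1 to 5. The 5 NEO1+ libraries lay within 1253 to 1315 CPM, NEO1- libraries 3 and 5 were inside or below that range, and NEO1- libraries 1, 2 and 4 were above it. The log2 fold change was -0.21 (SE 0.10) with an unadjusted p of 0.0458, or 0.0527 with the block, and the call was lost in 8 of the 10 fits that leave out 1 library each.

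To ask which members depart from the rest, the fit was repeated with each library scaled to the mean log2 CPM of the members, which sets them to about 0 on average and moves the median of all genes to 0.36. On that scale 15 members were higher and 14 lower in NEO1+. Rps27 left out, they ran from -0.19 for Rps21 to 0.18 for Rpsa. Rpsa was the single member with an unadjusted p under 0.05 (0.0430), against 15.5% of all genes tested, and its adjusted p was 0.306. No member departed after adjustment by edgeR, where 0.0492% of all genes did. Rps9, the lowest by p in the first comparison, was at -0.092 on this scale, Rps12 at -0.14, Rps25 at -0.16 and Rps6 at 0.16.

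Rps27, a zinc-binding protein of the platform and a Diamond-Blackfan gene, was by far the lowest member. It measured 1.15, 0.819, 0.606, 0.973 and 0.639 CPM in NEO1+ libraries 1 to 5 and 1.24, 0.936, 0.745, 1.0 and 0.562 CPM in NEO1- libraries 1 to 5, with 17 to 39 counts per library. The fit assigned it a biological coefficient of variation of 0.911, the highest among the members. With that assigned spread a difference of the size seen in the other members was not detectable. The log2 fold change was -0.10 (SE 1.07), and it was 0.04 without NEO1- library 1. The paralog Rps27l, which is also known as a target of p53, measured 52.4, 55.6, 53.7, 50.9 and 48.3 CPM in NEO1+ libraries 1 to 5 and 75.7, 68.4, 54.7, 68.1 and 58.3 CPM in NEO1- libraries 1 to 5. NEO1- library 3 was the one that overlapped, inside the NEO1+ range, and the log2 fold change was -0.32 (SE 0.16) with an unadjusted p of 0.0611. The retrogene Rps27rt was at 0 counts in all 10 libraries; 3 counts in a library would be 0.0770 to 0.142 CPM on its raw total.

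The coding sequences show how far reads of these genes can be told apart. That of Rps27rt is identical to that of Rps27 in the GENCODE vM21 annotation (0 of 252 bases different), while Rps27l differs from Rps27 at 60 of 252 bases (76.2% identity). Coding bases 4 to 63 are given for all 3 genes, with the 19 bases of Rps27l that differ from Rps27 in capitals.
Rps27: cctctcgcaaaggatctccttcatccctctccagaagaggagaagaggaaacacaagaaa
Rps27rt: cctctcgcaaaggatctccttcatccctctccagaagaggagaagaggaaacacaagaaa
Rps27l: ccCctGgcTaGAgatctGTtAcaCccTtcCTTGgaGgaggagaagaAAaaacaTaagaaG

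Of the 50-base words of the whole Rps27 transcript, 98.6% also occur in another annotated gene, the highest share among the members, whether the longest or the shortest of the best-ranked transcripts of each gene is taken. With the shortest, the next were Rps10 at 92.4% and Rps12 at 90.1%, which were measured at 95.2 to 308 CPM. For Rps10 the other genes include the entry RPS10-NUDT3, identical over 456 of the 495 coding bases. Rps10 also overlaps 2 other annotated genes. Whether its shared words lie at a separate place in the genome was not checked. The labels do not say how reads that fit several genes were counted, so the level of Rps27 is uncertain. The part of this in its low level was not tested.

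**Figure D3:**
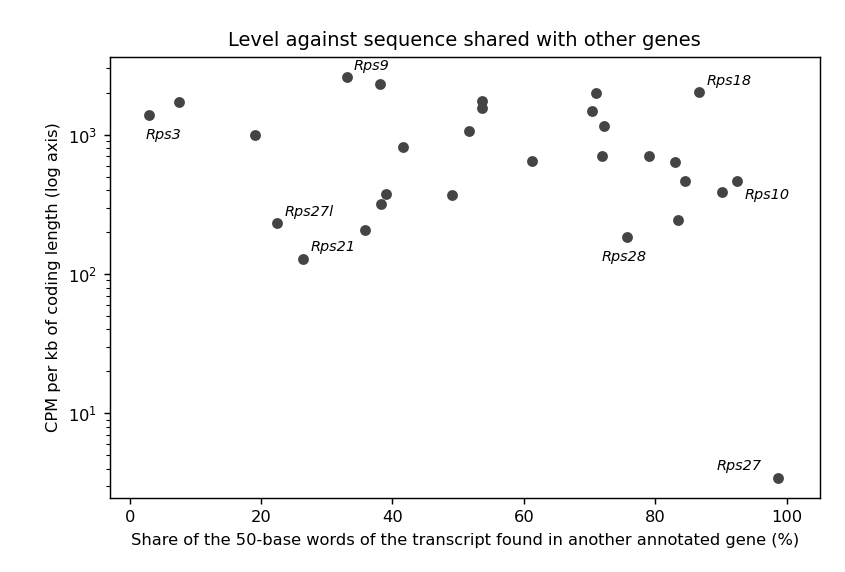
Mean level of each of the 29 genes over 10 libraries, in CPM per kb of coding length on a log axis, against the share of 50-base words of its shortest transcript that occur in another annotated gene. Rps27 has the highest share, 98.6%, and the lowest level, while Rps10 and Rps18, with shares of 92.4% and 86.7%, lie among the other genes. The share of Rps10 counts the entry RPS10-NUDT3 as another gene.

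Near-identical copies are common in this family and make single values uncertain. At 97% identity or more over at least 80% of the coding sequence, 25 of the 29 members had a copy, and 109 of the 124 copies were annotated as pseudogenes; Rps12 had 17. For 10 members every 50-base word of the coding sequence occurs elsewhere. The 6 members with under 60% of such words shared (Rps3, Rps9, Rps14, Rps15, Rps21 and Rps27l) had a median log2 fold change of -0.45, with 4 of 6 lower at an unadjusted p under 0.05. The other 23 had a median of -0.37, with 18 of 23. Over the 28 members without Rps27 the share correlated with the log2 fold change at r = 0.04, given as a description. Members with the TOP tract in the window had a median of -0.38 (8 of 13 lower at an unadjusted p under 0.05), and those without it -0.35 (11 of 12).

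The gene bodies of 8 members hold 15 small nucleolar RNA genes, which guide changes of ribosomal RNA bases. Those 8 members had a median log2 fold change of -0.33, all 8 lower at an unadjusted p under 0.05, and the other 21 a median of -0.42 with 14 of 21. Whether either difference between kinds of member exceeds chance was not tested. Of the members, 7 overlap another annotated gene, counted over the whole span of each gene with introns and on either strand. The labels do not say whether strand was used in counting. Whether reads of both genes were told apart where they overlap is therefore not known. The members lie on 14 chromosomes, with 6 on chromosome 7 and 4 on chromosome 17.

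The summed level of the members gives their weight in the library. On the TMM scale it was 13034, 13564, 12483, 12518 and 13218 CPM in NEO1+ libraries 1 to 5 and 17387, 20182, 14969, 16069.6 and 14003 CPM in NEO1- libraries 1 to 5. All NEO1- libraries were above all NEO1+ libraries, the NEO1- libraries spread wider (12963 ± 463 against 16522 ± 2404; SD, n = 5 each), and the ratio of the means was -0.35 on the log2 scale. DESeq2 size factors gave the same ratio of -0.35, and totals without Rn45s gave -0.33, each without overlap. On raw library totals the sums were 13661 ± 484 and 15589.7 ± 1720 CPM, the ratio was -0.19 and the groups overlapped. As a share of all counts, the members took 1.37 ± 0.0484% of NEO1+ libraries and 1.56 ± 0.172% of NEO1- ones (SD, n = 5 each).

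The size of the difference depended on the scale. Raw totals move the median log2 fold change of all genes from 0.01 to 0.16 and that of the members from -0.38 to -0.23, so both medians rise. On that scale 12 members were lower at an unadjusted p under 0.05 and 2 did not overlap, while Rps27 changed sign to 0.05. The number of genes detected also moved with the group; with it as a covariate 27 of the 29 members stayed below 0, at a median of -0.28 where all genes had -0.0088. The median standard error of the members widened from 0.11 to 0.16, 8 of the 29 were lower at an unadjusted p under 0.05, and Rps27 and Rps28 changed sign, each to 0.13. The shares of all genes are not given for raw totals or for the covariate, so these counts cannot be set against those of the main fit.

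**Figure D4:**
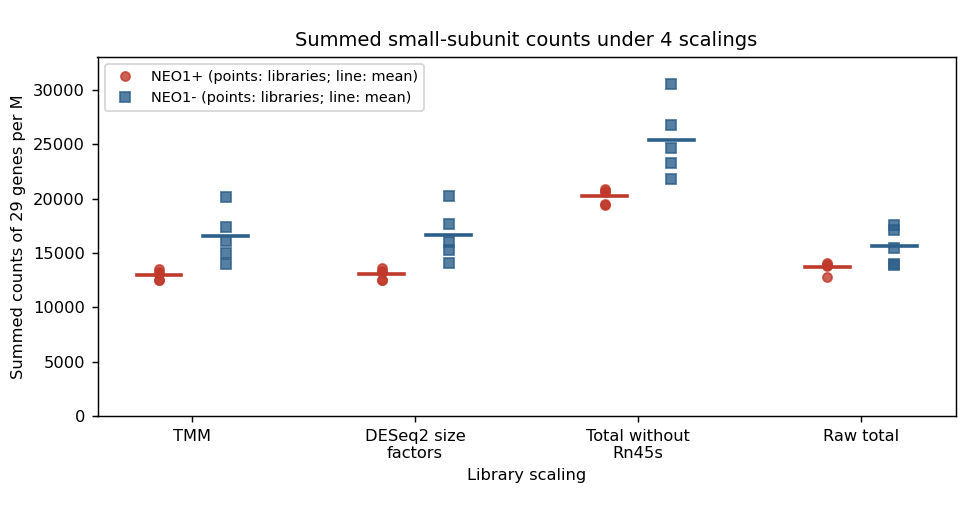
Summed counts of the 29 genes per M library counts under 4 library scalings; points are libraries and lines are group means. The groups are apart under TMM (-0.35 on the log2 scale), DESeq2 size factors (-0.35) and totals without Rn45s (-0.33), and overlap on raw totals (-0.19).

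Within each group, short members stood apart from the longer ones in the libraries numbered 1. The 4 members with a coding length of at most 300 bases (Rps21, Rps27l, Rps28 and Rps29; Rps27 left out) were compared with the 24 longer ones as deviations from the group mean on the log2 scale. Short minus longer was 0.59 in NEO1+ library 1 and 0.50 in NEO1- library 1, and it lay between -0.35 and 0.08 in the other 8 libraries. Rps21, Rps28 and Rps29 were each highest in library 1 of both groups, while Rps27l in NEO1+ library 1, at 52.4 CPM, was below libraries 2 and 3 at 55.6 and 53.7 CPM. The difference was -0.20 and -0.35 in the libraries numbered 3 and -0.32 and -0.11 in those numbered 4. Large-subunit genes, which are no members, went the same way: their 5 short genes exceeded the 42 longer ones by 0.52 and 0.45 in the libraries numbered 1 and differed from them by -0.33 to 0.11 in the others. With both libraries numbered 1 left out, 21 members were lower at an unadjusted p under 0.05, 12 did not overlap and the median was -0.39. Because groups separate more easily with fewer libraries, the 12 cannot be set against the count from all libraries. The shares of all genes are not given for that setting. The cDNA was cleaned with beads at a ratio that removes small fragments, per the labels' protocols, and the part of that step was not tested. The log2 fold change itself correlated with log2 coding length at r = 0.66 and with log2 CPM at r = 0.51 over the 28 members, with shorter and lower members further below 0.

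**Figure D5:**
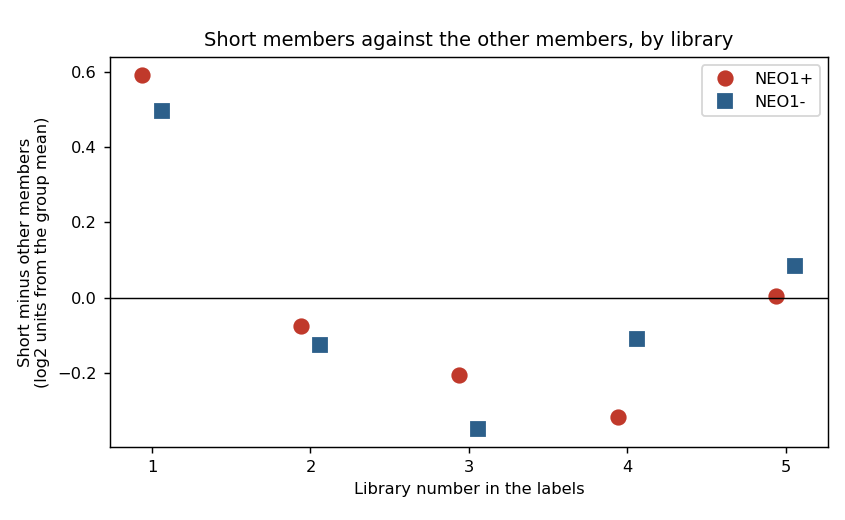
Mean deviation of 4 short members minus that of 24 longer members, in log2 units from the group mean, by library number; circles are NEO1+ and squares NEO1- libraries. Both libraries numbered 1 lie at 0.50 to 0.59 and the rest between -0.35 and 0.08.

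Other rows of the small subunit stand beside the members. Rack1, a scaffold protein bound to the head, was 542 ± 25.6 against 692 ± 53.6 CPM (SD, n = 5 each) without overlap, with a log2 fold change of -0.35 (SE 0.075) and an edgeR adjusted p of 0.248. It shares 1.44% of its coding 50-base words with other genes. Rps4l, annotated as a transcribed processed pseudogene, shares 14.9% of the 50-base words of its transcript with other genes and was 42.4 ± 5.55 against 41.2 ± 11.4 CPM, and its log2 fold change of 0.042 (SE 0.23) lay above that of every member. The other pseudogene rows Rps19-ps3, Rps15a-ps4 and Rps15a-ps6 did not exceed 2.37 CPM in any library.

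Of 49 large-subunit rows tested, 47 were lower in NEO1+ and 35 were so at an unadjusted p under 0.05. Their median log2 fold change was -0.34 against -0.38 for the small subunit; 6 of 49 did not overlap against 11 of 29. The difference between the subunits was not tested. Large-subunit rows also filled 33 of the 100 places of highest correlation with the mean log2 CPM of the members over 10 libraries, among 12174 other genes. Their median r was 0.88, where that of all other genes was -0.089. The genes of most similar pattern included Rplp1 (r = 0.98) and Rplp2 (0.97), acidic proteins of the large-subunit stalk, Uqcrb (0.98), a subunit of mitochondrial complex III, and D8Ertd738e (0.97). Rplp1 was 318 ± 42.8 against 469 ± 109.5 CPM and Uqcrb 56.8 ± 5.87 against 75.5 ± 17.9 CPM. These points share the libraries and their scaling.

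Genes that build the subunit, or load it with messenger RNA, had list medians nearer to that of all genes. Of 37 tested genes of 40S assembly, 1 was lower at an unadjusted p under 0.05, namely Fbl, which methylates ribosomal RNA, with 48.2 ± 4.23 against 64.8 ± 17.3 CPM and a log2 fold change of -0.43 (SE 0.20). The list's median was -0.10, and Nob1, the endonuclease of the last cut of the 18S ribosomal RNA, was at -0.10 (SE 0.18). Of 20 initiation factors that bind the 40S subunit, 5 were lower by that rule, with a list median of -0.080. These were Eif1, which guards start codon choice, at -0.31 (SE 0.11), the eIF2 subunit Eif2s2 at -0.59 (SE 0.27), and the eIF3 subunits Eif3e at -0.25 (SE 0.092), Eif3h at -0.34 (SE 0.13) and Eif3k at -0.34 (SE 0.11). None of these genes passed adjustment by edgeR, where the smallest adjusted p of the 6 was 0.548, or by DESeq2. With the library number as a block, DESeq2 called 3 of them, Eif1 (adjusted p 0.00479), Eif3h (0.0197) and Eif3k (0.0499).

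Among 17 genes that control TOP messages or ribosomal protein transcription, the median log2 fold change was -0.059, with 3 lower and 1 higher at an unadjusted p under 0.05. Larp1, which binds the TOP tract, was 34.0 ± 4.36 against 53.7 ± 22.0 CPM with a log2 fold change of -0.66 (SE 0.27). Myc, a transcription factor that drives ribosome production, was 261 ± 46.8 against 365 ± 94 CPM with -0.48 (SE 0.17), and Mycn, its paralog, was 540.2 ± 101 against 404 ± 64.2 CPM with 0.42 (SE 0.13) and was the 1 gene of this list called by DESeq2 with the block (adjusted p 0.000643), with 0 called by DESeq2 without it and by edgeR. The groups overlapped for Larp1, Myc and Mycn. Tsc2, which restrains mTOR, was at -0.46 (SE 0.21), and Mtor at -0.13 (SE 0.27). Of 12 p53 targets beside Rps27l, none had an unadjusted p under 0.05 by edgeR, and their median of 0.26 was opposite in sign to Rps27l, with Mdm2 at 0.32 (SE 0.16) and Cdkn1a at 0.12 (SE 1.0).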

How the data were processed

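Raw counts per gene symbol and library were deposited by the authors for 10 libraries, 5 per group. Per the submitters' processing notes, bcl2fastq 2.18, STAR 2.4, DESeq, DESeq2 1.22.2 and the mouse build mm10 were used; the counting tool, annotation and strand setting are not given in the sources used here. The authors also deposited log2 values, each equal to log2 of the count over 1 size factor per library, plus 1, within 5.15e-14. The libraries have no molecular identifiers, so PCR copies count as reads, and floors cover counting error only. A floor of 3 counts is 0.0770 to 0.142 CPM. A chi-square comparison of counts gave at least 86.7 per degree of freedom for every pair within a group, so no library repeated another of its group.

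The main test was edgeR's quasi-likelihood F test (edgeR 4.0.16, R 4.3.3) on TMM-scaled counts with a robust fit, over the 12203 genes kept by filterByExpr (common biological coefficient of variation 0.717). P-values were adjusted by Benjamini-Hochberg over all of them, with a threshold of 0.05. CPM values use TMM-scaled library sizes. Departure from the other members was fitted with each library's mean log2 CPM of the members as offset. DESeq2 1.42.0 and limma 3.58.1 on the deposited log2 values were alternatives, as were other scalings, filters, covariates and each library left out. The script was tested on simulated data. Sequences came from RefSeq promoters (GRCm38.p6) and GENCODE vM21.

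The members and all lists were chosen with earlier results of these data known, so no list was tested as a set. Values by library are given for the 5 members of smallest p, the 3 furthest below and above the members' median fold change, the 3 highest and lowest per kb of coding length, and always for Rps27, Rps27l, Rpsa, Fau, Rps27a, Rps4x and Rps19, while those of Rps29 were added after they were seen; genes of most similar pattern were named by correlation with the members' mean. Genes named from the other lists were chosen after their values were seen. Each group has libraries numbered 1 to 5. The labels do not say that a number marks shared mice or days. Deviations from the group means correlated between same-numbered libraries at 0.91, 0.58, 0.61, 0.72 and 0.53 over the 29 members, and at 0.00 to 0.04 over all genes, where libraries of different numbers averaged -0.13 over the members, with a range of -0.85 to 0.81 that holds 4 of the 5 same-number values. Over the members, 4 of 5 NEO1+ and 4 of 5 NEO1- libraries correlated best with the library of their own number in the other group. Over all genes, 3 of 5 NEO1+ and 1 of 5 NEO1- libraries did. The values over the members and over all genes thus differ, and whether a number pairs the libraries is not known. The main test does not use the numbers, and values with the number as a block are given where they change a call. The Rps14 sequence and some rows of other genes are not reported here.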

Additional observations from a re-analysis of the deposited data

Results flagged for a closer look

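In groups of 5, a library was marked where its gap to the nearest other exceeded Dixon's 95% critical value; 62 groups of members and summed measures were checked and 4 were marked, where chance alone marks about 1 in 20, or 3.1. Rps4x was low in NEO1+ library 3, at 9.57 log2 CPM against 9.66 for the nearest of the other NEO1+ libraries. Rps12 was low in the library labelled NEO1+ 4, at 6.57 log2 CPM against 7.0. Rps27a was low in the same library, at 8.0 log2 CPM against 8.17. Rps18 was high in NEO1- library 2, at 10.42 log2 CPM against 9.94, and that library also had the highest summed level of the members.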

How the results depend on the processing

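All 29 members were below 0 in the main comparison, in both DESeq2 fits and in the blocked edgeR fit. Of the single-member values, 575 kept their direction and their side of the adjusted p threshold, 29 passed adjustment only with DESeq2 and 4 turned. No member passed adjustment in the main fit, so no such call could be lost. Changes in unadjusted calls are not counted among these values and are given below. Of the counts and summaries, 96 held and 6 moved. The count of 22 members lower at an unadjusted p under 0.05 became 8 with the number of genes detected as covariate, where the median was -0.28 and standard errors widened. It became 12 on raw library totals, an alternative chosen after seeing the data, as was leaving out both libraries numbered 1 (21 members). The shares of all genes are not given for these settings. On raw totals the members without overlap went from 11 to 2 and the mean log2 difference of their summed CPM from -0.34 to -0.18. Raw totals moved the median of all genes upward as well, as given above. The count of 0 members past adjustment in edgeR became 11 in DESeq2, or 18 once DESeq2 held the replicate block. Values that turned were Rps27 at 0.13 and Rps28 at 0.13 with the covariate, Rps27 at 0.0445 without NEO1- library 1 (its range over fits without 1 library was -0.24 to 0.0445) and Rps27 at 0.0522 on raw totals. The cause was not tested.

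With the replicate block in edgeR, 24 members were lower at an unadjusted p under 0.05, the median was -0.37 and 0 passed adjustment. The share of all genes is not given for that fit, so the 24 cannot be set against the count of the main fit. Beside the unadjusted calls of Rps21, Rps26, Rps29 and Rpsa given above, the block changed no other call in edgeR. Leaving out each library in turn gave 17 to 24 members lower at an unadjusted p under 0.05, a median of -0.45 to -0.31, 11 to 15 members without overlap, a summed difference of -0.40 to -0.26, and 0 past adjustment. With a library left out groups separate more easily, and the shares of all genes are not given for those fits. Of the 22, 17 were called in every such fit, and 5 others were gained in at least 1. Rps27 rests on the fewest counts, 17 to 39 per library, and the fit assigned it the widest spread of the members.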
